A study of Mus musculus with 20 samples.

Results

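The comparison set 1 mouse induced pluripotent line, called miPS here, against the E14 and v6.5 lines of embryonic stem cells (mESC). Its 5 libraries were all those of the 2 kinds in the survey of stem cell and fibroblast lines, which had 8 of the 20 libraries of the series. The miPS library came from line MCV8.1, fibroblasts that carry an Oct4-GFP reporter and were reprogrammed with retroviruses for Oct4, Sox2, c-myc and Klf4, on a 129/svJae x C57BL/6 background. The mESC were E14, wild type and 129/Ola (2 libraries), and v6.5, wild type and 129/svJae x C57BL/6 (2 libraries), so v6.5 shared its strain label with miPS and E14 did not. All 5 were grown on irradiated fibroblast feeders, which were let settle and left behind before harvest, and none was treated. Levels in the remaining survey libraries stand beside some genes: 2 partially reprogrammed lines, 11.3/MCV6 and 11.5/MCV8, with the same 4 retroviruses and grown without feeders, and Oct4-GFP embryonic fibroblasts (MEF). The question was how far the transcriptome of a fully reprogrammed line lay from that of embryo-derived stem cells.

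Reprogramming resets a somatic cell by forcing high levels of a few transcription factors until its own pluripotency genes take over and the viral transgenes fall silent. Mouse stem cells on feeders are kept near the naive state by LIF and BMP signals, while FGF, Nodal and Wnt signals move them towards the formative epiblast and then the primitive streak. Induced lines have been compared with embryo-derived ones for parental genes left on, imprinted genes that lost their one-parent expression, and chromosome gains picked up in culture.

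The miPS library summed to 7613843 expected counts, against 17008367 and 23662593 in E14 and 7815744 and 12389911 in v6.5. On log2 counts per 1000000 reads (CPM, scaled by TMM), miPS correlated across genes at 0.932 and 0.918 with E14 and at 0.939 and 0.912 with v6.5. Genes are not independent replicates, so these are descriptions. Both E14 libraries were close (0.992, with 116 of 16773 genes 2-fold apart), but the v6.5 pair stood at 0.897 with 4663 genes 2-fold apart, more than the 2604 to 3949 that lay 2-fold apart between miPS and a single mESC library. The difference within the v6.5 pair followed the GC content of the transcripts (Spearman 0.624), as did that within the E14 pair (0.609), and miPS minus each mESC library had values of 0.402, 0.535, -0.290 and 0.449. With the partially reprogrammed lines miPS correlated at 0.850 and 0.844, and with MEF at 0.770. As a check of the lines, chosen after its values were seen, Hprt, a purine salvage enzyme that a widely used subline of E14 lacks, had 84.1 TPM (transcripts per 1000000) in miPS, against 1.04 and 2.10 TPM in E14 and 43.1 and 139 TPM in v6.5.

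Of 16773 genes tested, 5 rose in miPS and 0 fell, which is 0.0298% of the genes (edgeR's quasi-likelihood test with Benjamini-Hochberg adjustment, adjusted p under 0.05, each mESC line given equal weight). At an unadjusted p under 0.05 there were 1334, and DESeq2 called 175, of which 116 were higher and 59 lower in miPS. With GC correction, 8 genes were called (7 higher, 1 lower). Leaving out either E14 library gave 0 calls, while 308 genes were called without v6.5 library 1 57 without v6.5 library 2 and 1 without either partially reprogrammed library. The single miPS library gave no spread of its own: the error came from the E14, v6.5 and partially reprogrammed pairs, with 3 residual degrees of freedom. Against v6.5 alone 0 genes were called (0% of 16773), with 1280 at an unadjusted p under 0.05 and 180 by DESeq2. With the 4 mESC libraries as 1 group, 0 genes were called as well (0% of 16773), with 466 at an unadjusted p under 0.05 and 32 by DESeq2. By comparison, E14 minus v6.5 had 82 called genes (0.489%), of which 25 were higher (0.149%) and 57 lower (0.34%) in E14, and 0 without any 1 E14 or partially reprogrammed library. The E14 minus v6.5 contrast had 2 libraries on each side and the miPS contrasts had 1 miPS library, so these numbers of calls do not rank the distances. Between single E14 and v6.5 libraries, 2492 to 5922 genes lay 2-fold apart, against 2604 to 3949 between miPS and a single mESC library. The labels do not say that the E14 or v6.5 replicates were separate cultures, so the spread within those pairs may be technical. The partially reprogrammed pair was 2 different lines fitted as 1 group, with 1750 genes 2-fold apart. In the fit of all 8 libraries, the p-values measure only the spread within these pairs.

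The distance of miPS from the range of the 4 mESC libraries is given next, as a description with no test. By that measure 181 genes (1.08%) lay at least 2-fold above the highest mESC library and 99 genes (0.59%) at least 2-fold below the lowest, on CPM with 1 added. Of these 280 genes, 3 were called, and their adjusted p ran from 0.0304 to 0.74. At the edge of the threshold, S100a16 lay inside at 2.001-fold above and Rhox9 outside at 1.998-fold, while Nes lay inside at 2.002-fold below and Ktn1 outside at 1.995-fold. Without v6.5 library 1 the number outside the range was 1252 (535 above, 717 below). Protein-coding genes made up 121 of those above and 86 of those below.

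**Figure D1:**
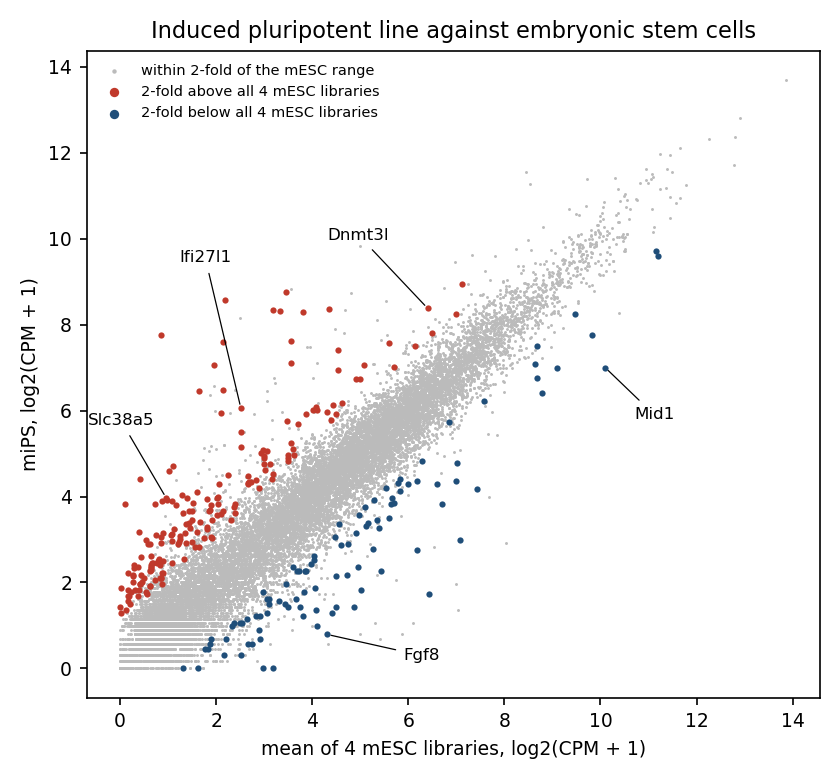
Level of each of 16773 genes in the miPS library (y axis) against the mean of the 4 mESC libraries (x axis), both as log2(CPM + 1). Red points are the 181 genes at least 2-fold above every mESC library, blue points the 99 genes at least 2-fold below every one, and grey points all other genes; Ifi27l1, Slc38a5 and Dnmt3l are among the red points and Mid1 and Fgf8 among the blue ones.

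Slc38a5, a sodium-coupled transporter of glutamine and other neutral amino acids, was the called gene with a unique protein-coding locus (chromosome X, 7848517 to 7857302 in mm9). It had 11.5 TPM in miPS, against 1.12 and 1.18 TPM in E14 and 1.43 and 1.66 TPM in v6.5. The miPS level stood clear of all 4 mESC libraries, which lay close together, and rested on 120 counts. It rose by 3.93 ± 0.258 on the log2 scale (SE; edgeR, adjusted p = 0.0304). The call was lost when either E14 library or either partially reprogrammed library was left out (edgeR, adjusted p from 0.119 to 0.367). The partially reprogrammed lines read 327 and 442 TPM and MEF 0.742 TPM.

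The other 4 called genes were loci whose reads can be shared with copies or overlapping genes, so their counts are uncertain. Gm10071, a processed pseudogene, had 467 TPM in miPS, against 1.24 and 0.953 TPM in E14 and 3.27 and 3.01 TPM in v6.5. AL807811.1, a short locus annotated as a microRNA, had 7322 TPM in miPS, against 6.74 and 13.3 TPM in E14 and 346 and 987 TPM in v6.5. Both lay above every mESC library. Gm15564, annotated as antisense, had 311 TPM in miPS, against 0.867 and 0.643 TPM in E14 and 206 and 306 TPM in v6.5. The pseudogene Gm9761 had 166 TPM in miPS, against 0.544 and 0.493 TPM in E14 and 136 and 111 TPM in v6.5. For Gm15564 and Gm9761 the fitted log2 differences were 9.78 and 9.00 against E14, and 0.31 and 0.42 against v6.5, where neither was called (edgeR, adjusted p = 0.863 and 0.861).

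The same E14 split ran through the comparison of miPS with E14 alone, where 14 genes (0.0835%) were called, 13 higher (0.0775%) and 1 lower (0.00596%) in miPS. Without either E14 library 0 were called, without either partially reprogrammed library 2, and without v6.5 library 1 or 2 574 and 552. In 11 of the 14, both E14 libraries lay at least 4-fold below miPS and both v6.5 libraries. The 14 were called for a difference between miPS and E14, so that part of the pattern was fixed by the choice. The share of all genes with this pattern was not counted. Ftl1, the ferritin light chain that stores iron, had 4348 TPM in miPS, against 64.7 and 54.9 TPM in E14 and 6564 and 3574 TPM in v6.5. Ftl2, a processed pseudogene of it, ran the other way with 1.87 TPM in miPS, against 2196 and 1755 TPM in E14 and 1.59 and 0.494 TPM in v6.5. Summed over both, the ferritin light chain had 4350 TPM in miPS, against 2261 and 1810 TPM in E14 and 6565 and 3574 TPM in v6.5. The E14 sums lay below those of the other 3 libraries, by less than for Ftl1 alone. Ftl1 and Ftl2 were named after their values were seen.

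The 4 factors of the retroviruses are read here as transgene and endogenous transcripts together, which the deposited values cannot separate. Pou5f1 (Oct4), the core factor of pluripotency, had 1152 TPM in miPS, against 943 and 825 TPM in E14 and 793 and 1223 TPM in v6.5. The partially reprogrammed lines read 6491 and 6911 TPM, so the miPS level was far from theirs. It lay among the mESC levels on TPM, but 1.29-fold above the highest on TMM-scaled CPM with 1 added. Klf4, a naive-state factor, had 247 TPM in miPS, against 152 and 102 TPM in E14 and 176 and 73.3 TPM in v6.5, beside 2495 and 2533 TPM in the partially reprogrammed lines. Sox2, the partner of Oct4, had 358 TPM in miPS, against 395 and 242 TPM in E14 and 647 and 204 TPM in v6.5, within the mESC range. Myc, a growth-promoting factor, had 55.02 TPM in miPS, against 18.5 and 15.2 TPM in E14 and 25.0 and 22.1 TPM in v6.5. Myc was the 1 factor of the 4 that lay more than 2-fold outside, 2.01-fold above (1.08% over all genes). It had 1405 and 2002 TPM in the partially reprogrammed lines. None of the 4 was called (edgeR, adjusted p between 0.251 for Myc and 1 for Sox2), and the median log2 difference of the list was 0.82, against 0.0086 over all genes tested.

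Among regulators of the naive state and of early signalling, several genes lay above the mESC range; Dnmt3l, Etv4, Tbx3, Eras and Lck, like Fgf4 and Dppa3 after them, were chosen after their values were seen. Dnmt3l, the cofactor of de novo DNA methylation (chromosome 10, 77505031 to 77526360 in mm9), had 260 TPM in miPS, against 79.8 and 82.9 TPM in E14 and 62.9 and 63.0 TPM in v6.5. Its fitted difference was 1.99 ± 0.327 on the log2 scale (SE; edgeR, adjusted p = 0.21). The mESC libraries lay within a narrow band and miPS 3.64-fold past its upper edge on the scale with 1 CPM added. Etv4, an ETS factor switched on by FGF signalling, had 87.2 TPM in miPS, against 17.6 and 13.4 TPM in E14 and 24.4 and 18.2 TPM in v6.5. Tbx3, a naive-state T-box factor, had 111 TPM in miPS, against 32.8 and 20.4 TPM in E14 and 62.2 and 9.66 TPM in v6.5. For Tbx3 the mESC libraries were themselves spread widely, and miPS lay above the highest. Eras, a Ras protein of embryonic stem cells, had 71.9 TPM in miPS, against 23.9 and 21.0 TPM in E14 and 23.3 and 8.35 TPM in v6.5. Lck, a Src-family kinase, had 55.1 TPM in miPS, against 16.8 and 14.9 TPM in E14 and 16.1 and 13.6 TPM in v6.5.

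Of the 20 genes of the naive list, none was called, 12 lay above all 4 mESC libraries by any amount (20.4% over all genes) and 1 below (15.8% over all genes), and its median log2 difference was 0.63, or 1.02 against v6.5 alone. Tdgf1, the Nodal co-receptor, had 637 TPM in miPS, against 443 and 469 TPM in E14 and 402 and 487 TPM in v6.5. Zfp42 (Rex1), a marker of the naive state, had 380 TPM in miPS, against 618 and 640 TPM in E14 and 120 and 126 TPM in v6.5, so it lay between the lines. Fgf4, an autocrine ligand that primes cells for differentiation, had 137 TPM in miPS, against 80.5 and 72.6 TPM in E14 and 60.0 and 44.8 TPM in v6.5. Dppa3 (Stella), a protector of maternal methylation, was the exception in direction. It had 19.4 TPM in miPS, against 49.4 and 51.0 TPM in E14 and 47.8 and 99.8 TPM in v6.5.

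**Figure D2:**
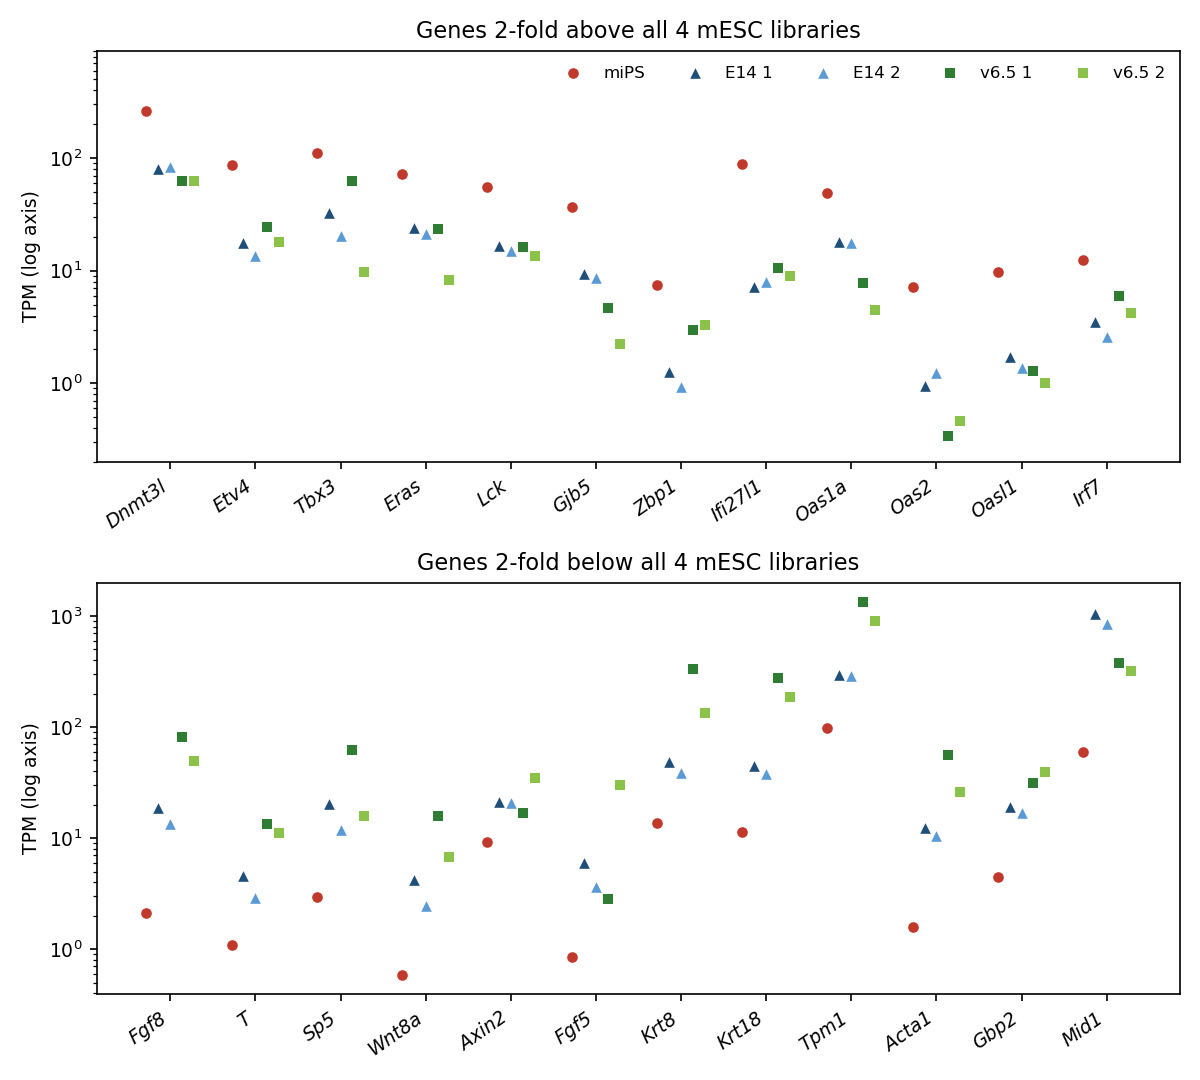
TPM (log axis) of 12 genes at least 2-fold above (top) and 12 genes at least 2-fold below (bottom) all 4 mESC libraries, one point per library: miPS as red circles, E14 as blue triangles, v6.5 as green squares. In each column the miPS point stands alone, as for Dnmt3l at 260 TPM and Fgf8 at 2.13 TPM, while the spread of the mESC points differs widely between genes.

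Of 28 tested genes of the interferon and antigen presentation list, 3 lay 2-fold above the mESC range (1.08% over all genes) and 0 below (0.59%). The following 8 genes of the interferon and double-stranded RNA response include those 3 and were chosen after their values were seen: all were at least 2-fold above every mESC library, and none was called (edgeR, adjusted p from 0.103 to 0.589). The oligoadenylate synthetases sense double-stranded RNA and make the messenger that activates RNase L. Oas1a and Oas1g held an interferon-stimulated response element in their promoters, GAAA, any 2 bases and GAAA again, on either strand, where 2 overlapping matches (capitals) lie just before the start. The sequences show 250 bases before to 50 bases after each gene's start, from RefSeq on GRCm38.p6, 5′ to 3′ on the gene's minus strand, at chr5:120907476-120907775 for Oas1a and chr5:120887564-120887863 for Oas1g.
Oas1a: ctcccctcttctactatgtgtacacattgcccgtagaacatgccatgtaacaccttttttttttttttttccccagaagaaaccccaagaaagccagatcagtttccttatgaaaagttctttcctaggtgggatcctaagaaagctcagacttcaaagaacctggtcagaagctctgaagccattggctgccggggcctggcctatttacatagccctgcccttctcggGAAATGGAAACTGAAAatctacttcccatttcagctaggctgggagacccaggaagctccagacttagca
Oas1g: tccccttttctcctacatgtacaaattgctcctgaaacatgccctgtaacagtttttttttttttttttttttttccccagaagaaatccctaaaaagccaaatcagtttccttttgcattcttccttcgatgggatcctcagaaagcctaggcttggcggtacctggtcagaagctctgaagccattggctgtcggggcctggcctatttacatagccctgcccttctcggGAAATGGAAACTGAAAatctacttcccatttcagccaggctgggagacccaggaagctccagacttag
Of the 8 genes, 5 had a promoter entry and 2, Oas1a and Oas1g, held the motif, against 3.44% of 32851 promoters. Oasl1, Irf7 and Xaf1 had an entry and no match. The 2 matching promoters belong to neighbouring genes and share the same letters at the motif, so they are not separate cases. A match describes letters and not a bound factor.

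Oas1a had 49.5 TPM in miPS, against 17.8 and 17.6 TPM in E14 and 7.75 and 4.50 TPM in v6.5. Its neighbour Oas1g had 17.7 TPM in miPS, against 7.36 and 7.18 TPM in E14 and 1.90 and 1.10 TPM in v6.5, and their near-identical sequences can share reads. Oas2 had 7.12 TPM in miPS, against 0.947 and 1.23 TPM in E14 and 0.339 and 0.466 TPM in v6.5. In all 3, miPS was highest and E14 above v6.5. Oasl1, an oligoadenylate synthetase-like protein that restrains Irf7, had 9.66 TPM in miPS, against 1.72 and 1.37 TPM in E14 and 1.296 and 1.008 TPM in v6.5. Irf7, the main inducer of type I interferon, had 12.5 TPM in miPS, against 3.48 and 2.60 TPM in E14 and 5.96 and 4.23 TPM in v6.5. Ifi27l1, an interferon-inducible mitochondrial membrane protein, lay furthest outside the range of the 8. It had 88.9 TPM in miPS, against 7.19 and 7.89 TPM in E14 and 10.6 and 9.01 TPM in v6.5, a fitted log2 difference of 3.78 ± 0.419 (SE; edgeR, adjusted p = 0.103). Zbp1, a sensor of Z-form nucleic acid, had 7.40 TPM in miPS, against 1.27 and 0.931 TPM in E14 and 2.96 and 3.27 TPM in v6.5. Xaf1, a proapoptotic interferon target, had 16.4 TPM in miPS, against 7.02 and 7.70 TPM in E14 and 2.51 and 7.15 TPM in v6.5.

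The 3 of the list were Oas1a, Oas2 and Irf7. By any amount 10 of the 28 lay above all mESC libraries (20.4% over all genes) and 4 below (15.8%), and the median log2 difference was 0.20. Ifitm1, a restriction factor and germ cell marker, had 673 TPM in miPS, against 312 and 291 TPM in E14 and 348 and 232 TPM in v6.5. Ifitm2 had 708 TPM in miPS and 294 to 569 TPM in mESC. Isg15, a ubiquitin-like modifier, had 21.0 TPM in miPS, against 8.08 and 7.59 TPM in E14 and 19.2 and 10.3 TPM in v6.5. The interferon-inducible GTPases ran the other way. Gbp1 had 0.818 TPM in miPS, against 11.6 and 13.6 TPM in E14 and 7.85 and 17.8 TPM in v6.5. Gbp2 had 4.49 TPM in miPS, against 18.9 and 16.7 TPM in E14 and 31.5 and 39.4 TPM in v6.5. Isg15, Gbp1 and Gbp2 were chosen after their values were seen, and the paralogs of the Gbp family can share reads.

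Gjb5, a gap junction protein picked after its values were seen, had 37.0 TPM in miPS, against 9.40 and 8.54 TPM in E14 and 4.65 and 2.26 TPM in v6.5. It lay at least 2-fold past every mESC library. A trio of germline genes, also picked after their values were seen, stood out in the same direction. Piwil2, a piRNA-binding protein, had 11.03 TPM in miPS, against 5.41 and 5.93 TPM in E14 and 3.49 and 2.59 TPM in v6.5. Fkbp6, needed for piRNA function in the male germline, had 10.5 TPM in miPS, against 4.64 and 4.29 TPM in E14 and 1.46 and 1.02 TPM in v6.5. The X-linked homeobox gene Rhox6 had 8.18 TPM in miPS and 1.56 to 2.30 TPM in mESC. Of 25 germline genes that DNA methylation is known to silence, Piwil2 and Fkbp6 lay 2-fold above (1.08% over all genes) and 0 below (0.59%). By any amount, 5 lay above all 4 mESC libraries (20.4% over all genes) and 1 below (15.8%), and the median log2 difference was -0.15. Rpl10l and Tdrd12 of that list had 104 and 50.7 TPM in miPS, and 5.68 to 88.3 TPM and 20.6 to 108 TPM in mESC.

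Imprinted genes are a common check of reprogrammed lines, above all the noncoding RNAs of the maternal chromosome at Dlk1-Meg3, which are lost in some induced lines. Meg3 had 236 TPM in miPS, against 142 and 121 TPM in E14 and 452 and 280 TPM in v6.5. Rian had 109 TPM in miPS, against 113 and 130 TPM in E14 and 193 and 219 TPM in v6.5. Mirg had 14.6 TPM in miPS, against 8.48 and 8.17 TPM in E14 and 32.8 and 17.9 TPM in v6.5. These noncoding RNAs were therefore present, Meg3 and Mirg at levels between those of the 2 mESC lines. The values are totals per gene and do not tell the parental alleles apart. Rian lay below all 4 mESC libraries, by 0.621 on the log2 scale of CPM with 1 added, which is less than 2-fold. Of the paternal genes, Dlk1, a Notch-like membrane protein, had 15.9 TPM in miPS, against 4.18 and 2.97 TPM in E14 and 18.4 and 9.12 TPM in v6.5. Rtl1 (1.61 TPM in miPS and 0.697 to 3.88 TPM in mESC) and Dio3 (2.67 TPM and 1.49 to 4.44 TPM) were low in both. Dio3os was under the filter, with 1.87 TPM in miPS and 0.667 to 1.51 TPM in mESC. None of the 6 tested genes of the locus was called, and their median log2 difference was -0.05.

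Of 43 other imprinted entries 0 were called and the median log2 difference was 0.16. By any amount, 14 lay above all mESC libraries (20.4% over all genes) and 6 below (15.8%). Mest, a paternally expressed hydrolase of mesoderm, was the 1 entry 2-fold above (1.08% over all genes), and 0 lay 2-fold below (0.59%). Mest was picked after its values were seen. It lay 1.05 past the highest mESC library on the log2 scale, and 0.86 after GC correction, which is less than 2-fold. It had 162 TPM in miPS, against 4.33 and 3.12 TPM in E14 and 83.2 and 33.8 TPM in v6.5, so the gap to E14 far exceeded the gap to v6.5. Gnas, which encodes the stimulatory G protein alpha subunit, had 161 TPM in miPS, against 346 and 320 TPM in E14 and 428 and 448 TPM in v6.5, below every mESC library but by less than 2-fold after 1 CPM was added. Cd81 had 301 TPM in miPS and 131 to 268 TPM in mESC.

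Some genes above the mESC range were high in the partially reprogrammed lines, as Slc38a5 was; the 12 named next were picked for that after their values were seen, and none was called (edgeR, adjusted p from 0.13 to 0.683). Acsbg1, a very long chain acyl-CoA synthetase, had 13.98 TPM in miPS, against 1.07 and 0.959 TPM in E14 and 1.58 and 1.24 TPM in v6.5, beside 351 and 50.0 TPM in the partially reprogrammed lines. Lgals7, a galectin of stratified epithelia, had 22.3 TPM in miPS, against 1.86 and 1.44 TPM in E14 and 2.25 and 1.53 TPM in v6.5, beside 198 and 75.3 TPM. Ly6a (Sca-1), a surface marker of several progenitors, had 28.8 TPM in miPS, against 3.66 and 4.58 TPM in E14 and 1.31 and 5.86 TPM in v6.5, beside 1597 and 841 TPM. In each case miPS lay above all mESC libraries and well below both partially reprogrammed lines. The remaining 9 (Ly6c1, Foxd1, Npy, Mal, Eya2, Srgn, Avil, Ano1 and Sprr2b) had between 2.69 TPM (Eya2) and 9.33 TPM (Srgn) in miPS, and at most 3.88 TPM in any mESC library. For Sprr2b, a cornified envelope protein, the second partially reprogrammed line had 4.41 TPM, less than the 6.95 TPM of miPS.

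Some genes below the mESC range are known from the primitive streak or from Wnt and FGF signalling; those named were picked for their low values, and none of them was called (edgeR, adjusted p from 0.21 to 0.667). The FGF-related genes Etv4 and Fgf4 lay above the range instead. Fgf8, the FGF ligand of the streak (chromosome 19, 45811288 to 45817374 in mm9), had 2.13 TPM in miPS, against 18.8 and 13.3 TPM in E14 and 81.8 and 49.3 TPM in v6.5. Its miPS level rested on 6 counts, and the fitted difference was -4.70 ± 0.779 on the log2 scale (SE; edgeR, adjusted p = 0.21; 0.0451 after GC correction). T (Brachyury), the T-box factor of the streak, had 1.10 TPM in miPS, against 4.59 and 2.89 TPM in E14 and 13.3 and 11.2 TPM in v6.5. Both genes were lowest in miPS, and lower in E14 than in v6.5.

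Sp5, a zinc finger factor that beta-catenin switches on directly, had 2.93 TPM in miPS, against 20.4 and 11.7 TPM in E14 and 62.0 and 15.7 TPM in v6.5. Its promoter, at chr2:70474673-70474972 on the plus strand of GRCm38.p6 (RefSeq), is shown because it held CTTTGA, the core letters that TCF and LEF factors recognise, at 2 places (capitals).
Sp5: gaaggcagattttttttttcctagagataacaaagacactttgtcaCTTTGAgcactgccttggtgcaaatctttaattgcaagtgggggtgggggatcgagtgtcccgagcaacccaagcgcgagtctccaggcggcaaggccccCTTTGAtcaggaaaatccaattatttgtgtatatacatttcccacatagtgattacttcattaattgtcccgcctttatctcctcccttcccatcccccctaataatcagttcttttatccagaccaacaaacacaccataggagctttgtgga
Of 6 genes searched on both strands (Sp5, T, Axin2, Fgf8, Trim67 and Fgf5), 5 had an entry and 2, Sp5 and T, held these letters, against 5257 of 32851 promoters. Axin2, a negative feedback target of Wnt, had 9.23 TPM in miPS, against 21.0 and 20.5 TPM in E14 and 16.9 and 34.5 TPM in v6.5. The ligand Wnt8a had 0.580 TPM in miPS, against 4.21 and 2.44 TPM in E14 and 15.9 and 6.77 TPM in v6.5. Fgf5, the classical marker of the formative epiblast, had 0.842 TPM in miPS, against 6.00 and 3.66 TPM in E14 and 2.81 and 29.8 TPM in v6.5. These levels were lowest in miPS, and for Fgf5 the 2 v6.5 libraries were the lowest and the highest of mESC. Trim67, a ubiquitin ligase of the nervous system, had 1.08 TPM in miPS, against 7.69 and 5.79 TPM in E14 and 46.6 and 19.6 TPM in v6.5.

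Across the 11 tested genes of the streak and mesoderm list, 0 were called. By any amount, 5 lay below all mESC libraries (15.8% over all genes) and 1 above (20.4%). At 2-fold, 2 lay below (0.59% over all genes) and 0 above (1.08%). The median log2 difference was -0.92 (-1.35 against v6.5 and -0.50 against E14). Lefty1, a Nodal antagonist, had 133 TPM in miPS, against 482 and 320 TPM in E14 and 1029 and 212 TPM in v6.5. Lefty2 had 72.8 TPM in miPS, against 286 and 211 TPM in E14 and 194 and 38.1 TPM in v6.5, within the range. The 14 formative entries had 6 below (15.8% over all genes) and 2 above (20.4%) all mESC libraries by any amount. Their median was -0.72, with Etv4 2-fold above (1.08% over all genes) and Fgf5 2-fold below (0.59%). Etv5 had 210 TPM in miPS and 150 to 221 TPM in mESC.

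Some keratin and contractile genes were also low in miPS, most of them picked for that and belonging to no list here. Krt8 had 13.7 TPM in miPS, against 48.6 and 38.5 TPM in E14 and 335 and 133 TPM in v6.5. Its filament partner Krt18 had 11.4 TPM in miPS, against 44.9 and 37.4 TPM in E14 and 274 and 186 TPM in v6.5. Krt19 had 8.00 TPM in miPS and 18.9 to 54.7 TPM in mESC, just under 2-fold on the scale used. All 3 were lowest in miPS and lower in E14 than in v6.5. The actin-binding tropomyosin Tpm1 had 97.0 TPM in miPS, against 294 and 290 TPM in E14 and 1347 and 904 TPM in v6.5. Calponin, Cnn1, had 3.91 TPM in miPS, against 11.4 and 11.2 TPM in E14 and 65.2 and 47.2 TPM in v6.5. The regulatory light chain Myl9 had 11.1 TPM in miPS, against 28.5 and 26.8 TPM in E14 and 53.2 and 68.6 TPM in v6.5. Acta1, skeletal alpha actin, had 1.597 TPM in miPS, against 12.3 and 10.3 TPM in E14 and 55.4 and 26.1 TPM in v6.5, and Actc1 and Lmod1 lay below the range at 0.833 and 0.839 TPM in miPS. The 6 contractile genes and Krt19 were picked after their values were seen, and none of these 9 genes was called (edgeR, adjusted p from 0.238 to 0.712).

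Embryonic fibroblasts had high levels of several of these contractile genes, with 3491 TPM of Tpm1 and 778 TPM of Myl9 in MEF. By label, MEF were the fibroblasts used for reprogramming, and the survey had no library of the feeders themselves. The 28 markers of fibroblasts and feeders, 27 of them tested, summed to 1260 TPM in miPS and to 47330 TPM in MEF. Their sums were 1489 and 1468 TPM in E14 and 1866 and 1760 TPM in v6.5. The miPS sum was the lowest of the 5, and none of the 27 was called. Of the 27, 0 lay 2-fold outside the range (1.08% above and 0.59% below over all genes), and the median log2 difference was 0.10. Fn1 had 271 TPM in miPS and 254 to 512 TPM in mESC, and Sparc 200 TPM and 160 to 231 TPM. Of the 27, 5 lay below all 4 mESC libraries by any amount (15.8% over all genes) and 7 above (20.4%). The 2 smooth muscle genes among the 5 were named after their values were seen. Tagln had 42.2 TPM in miPS, against 87.4 and 90.1 TPM in E14 and 402 and 316 TPM in v6.5, beside 4082 TPM in MEF. Acta2 had 54.3 TPM in miPS, against 93.2 and 91.3 TPM in E14 and 125 and 89.8 TPM in v6.5, beside 7896 TPM in MEF. Both lay below every mESC library, as the contractile genes did. That no defining marker was at 0 says little, since entries at 0 reads also had a TPM above 0. The part of feeder RNA in the difference of the contractile genes was not tested, and in these bulk libraries fewer cells of a type cannot be told apart from less RNA per cell.

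Other genes below the range, picked after their values were seen, included Mid1, a microtubule-associated ubiquitin ligase (chromosome X, 166123178 to 166428729 in mm9). It had 59.2 TPM in miPS, against 1031 and 839 TPM in E14 and 378 and 322 TPM in v6.5, a fitted log2 difference of -3.12 ± 0.398 (SE; edgeR, adjusted p = 0.13). The loci G530011O06Rik, Gm15726 and Gm15247 lie on the opposite strand within its span and read 1.93, 0.301 and 0.388 TPM in miPS, each below every mESC library. Since the counting is not stated to use strand, their reads cannot be told apart from those of Mid1. Entries at 0 reads also had a TPM above 0, so the miPS values of Gm15726 and Gm15247 may stand for no reads. Nes, an intermediate filament of neural progenitors, had 5.83 TPM in miPS, against 15.1 and 13.6 TPM in E14 and 45.5 and 85.1 TPM in v6.5. Prom1, a membrane protein of progenitors, had 2.38 TPM in miPS and 9.64 to 25.5 TPM in mESC. Vldlr, a lipoprotein receptor, had 3.65 TPM in miPS and 7.43 to 9.28 TPM in mESC.

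The 2-cell-like program, a transient state of a few cells in culture, was higher in E14 than in v6.5 for the 2 members named first, with miPS between. Zscan4f, a factor of telomere maintenance in that state, had 9.68 TPM in miPS, against 19.2 and 22.2 TPM in E14 and 0.552 and 0.394 TPM in v6.5. Zscan4c had 5.12 TPM in miPS, against 18.3 and 22.5 TPM in E14 and 0.210 and 0.160 TPM in v6.5, and these near-identical paralogs can share reads. The 10 tested entries had a median log2 difference of 5.79 against v6.5 and of -0.85 against E14, so their median of 2.60 against both lines is an average of opposite differences. None was called. By any amount, 2 of the 10 lay above all 4 mESC libraries (20.4% over all genes) and 0 below; both were named after their values were seen. Gm4340 had 5.93 TPM in miPS, against 1.53 and 2.42 TPM in E14 and 0.279 and 0.467 TPM in v6.5. It was the 1 member 2-fold above (1.08% over all genes), and 0 lay 2-fold below (0.59%). Tmem92 had 6.15 TPM in miPS, against 5.39 and 3.30 TPM in E14 and 1.18 and 0.695 TPM in v6.5. Eif1a of that list had 89.8 TPM in miPS and 59.0 to 182 TPM in mESC.

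On the Y chromosome, Eif2s3y, a translation initiation factor subunit, had 7.24 TPM in miPS, against 60.6 and 70.5 TPM in E14 and 9.68 and 25.0 TPM in v6.5. The RNA helicase Ddx3y had 2.42 TPM in miPS, against 15.0 and 19.9 TPM in E14 and 2.34 and 8.56 TPM in v6.5. The demethylase Uty had 6.54 TPM in miPS, against 11.7 and 13.3 TPM in E14 and 2.44 and 9.12 TPM in v6.5. These levels in miPS lay near those of v6.5 and below those of E14. Kdm5d (0.558 TPM), Zfy1 (0.141 TPM) and the 3 Ube1y1 entries (1.06 to 1.43 TPM) were low in miPS, and Sry, Usp9y and Zfy2 were under the filter. None of the 8 tested Y entries was called, and their median log2 difference was -0.64. Xist, the RNA that silences one X chromosome in female cells, had 4.33 TPM in miPS, against 2.77 and 3.06 TPM in E14 and 1.17 and 4.05 TPM in v6.5. Its antisense Tsix had 3.84 TPM in miPS, against 2.826 and 2.496 TPM in E14 and 0.478 and 1.13 TPM in v6.5, and without strand the pair cannot be told apart. Rlim and Chic1, near Xist, had 42.8 and 5.203 TPM in miPS, and 37.7 to 130 TPM and 5.96 to 9.01 TPM in mESC.

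**Figure D3:**
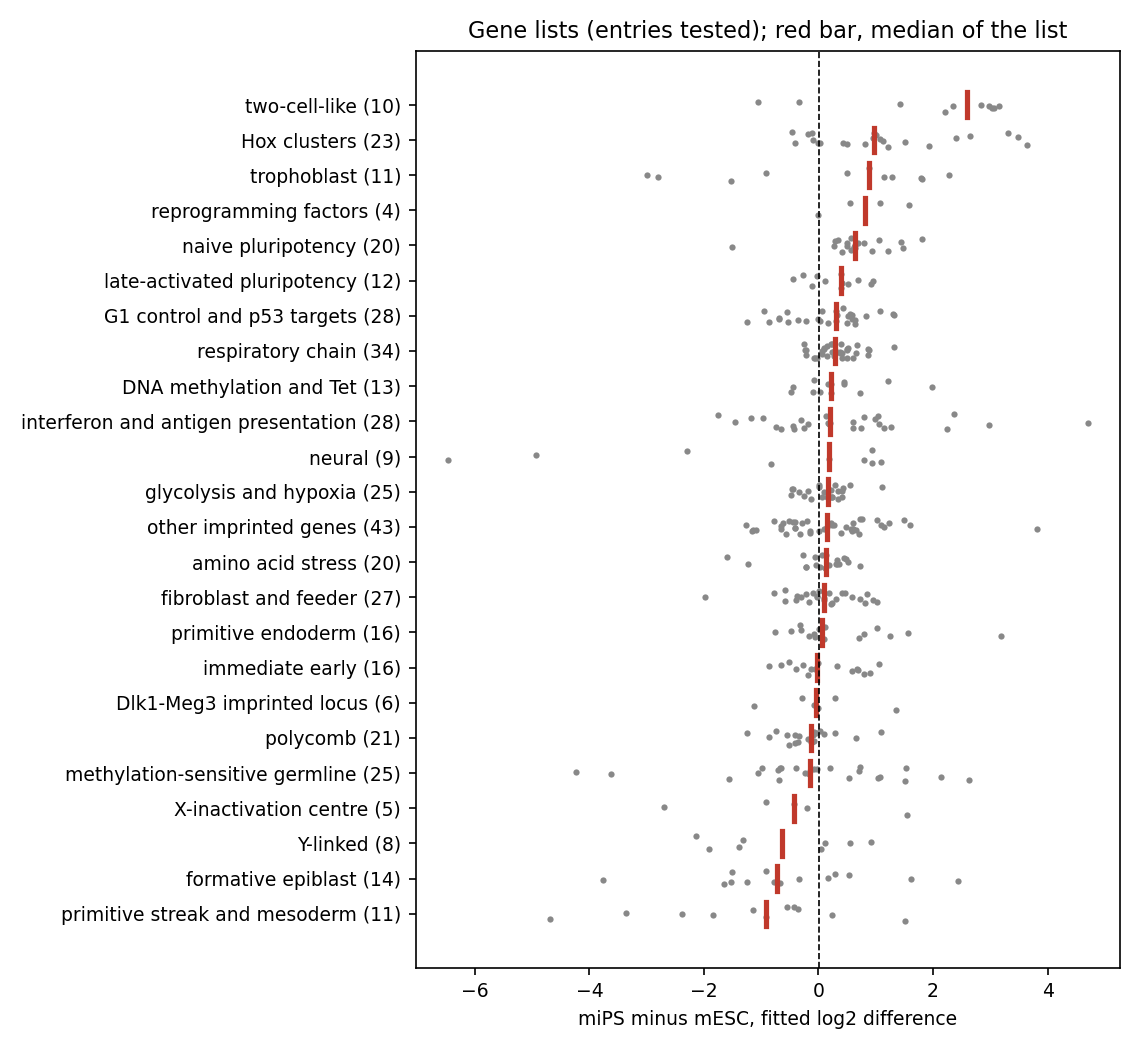
Fitted log2 difference (x axis), miPS minus the mean of both mESC lines, for each tested entry (grey points) of 24 gene lists (y axis, number of entries in brackets), with the median of each list as a red bar. The 2-cell-like list has the highest median at 2.60 and the primitive streak and mesoderm list the lowest at -0.92, while the other 22 medians lie between -0.72 and 0.97.

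The remaining lists held 0 calls. Beside the members given as 2-fold outside the range, the shares over all genes were 1.08% above and 0.59% below. The 12 late-activated pluripotency genes had a median of 0.39, and Dppa5a and Mybl2 had 2528 and 572 TPM in miPS, and 1242 to 3358 TPM and 302 to 569 TPM in mESC. Of 13 DNA methylation and Tet genes, Dnmt3l was the 1 gene 2-fold outside, the median was 0.22, and Trim28 and Uhrf1 had 1063 and 305 TPM in miPS, and 538 to 1064 TPM and 218 to 322 TPM in mESC. The 21 polycomb subunits had a median of -0.12, with Phc1 at 475 TPM in miPS and 378 to 819 TPM in mESC, and Rbbp4 at 200 TPM and 118 to 415 TPM. No polycomb gene lay 2-fold outside the range. Among 16 primitive endoderm genes (median 0.05), Srgn was 2-fold above, Apoe had 1068 TPM in miPS and 704 to 3342 TPM in mESC, and Lamc1 107 TPM and 116 to 137 TPM. The 9 neural genes had a median of 0.19, with Nes 2-fold below and Tubb3, a neuronal tubulin, at 111 TPM in miPS and 27.8 to 93.9 TPM in mESC. The 11 trophoblast genes had a median of 0.89, with Rhox6 2-fold above and Krt8 and Krt18 2-fold below. By any amount, 5 lay above all mESC libraries (20.4% over all genes) and 3 below (15.8%). The 34 respiratory chain genes had a median of 0.28, and 11 lay above all mESC libraries by any amount (20.4% over all genes) and 0 below (15.8%). Atp5b and Atp5a1, subunits of the ATP synthase, had 2106 and 1006 TPM in miPS, and 1057 to 2287 TPM and 676 to 1468 TPM in mESC. Cox7c, a cytochrome c oxidase subunit chosen after its values were seen, was the 1 member 2-fold above, with 881 TPM in miPS and 234 to 402 TPM in mESC. The 25 glycolysis and hypoxia genes had a median of 0.16, with Pkm2 at 3407 TPM in miPS and 2707 to 5414 TPM in mESC, and Aldoa at 2792 TPM and 1838 to 2532 TPM.

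The same held for cell cycle, stress and patterning lists. The 28 genes of G1 control and p53 had a median of 0.31, and Cdk4 and Trp53 had 489 and 353 TPM in miPS, and 245 to 417 TPM and 186 to 344 TPM in mESC. The 16 immediate early genes had a median of -0.03, with Egr1 at 154 TPM in miPS and 159 to 198 TPM in mESC, and Ier2 at 169 TPM and 134 to 244 TPM. The 20 amino acid stress genes had a median of 0.12, with Asns at 356 TPM in miPS and 226 to 387 TPM in mESC. Psat1 had 326 TPM in miPS and 223 to 541 TPM in mESC. Vldlr was the member 2-fold below (0.59% over all genes). The 23 Hox genes were low throughout, with Hoxd13 the highest in miPS at 3.03 TPM and 1.31 to 2.43 TPM in mESC. Their median of 0.97 rested on these low levels, and 7 lay above all mESC libraries by any amount, against 20.4% over all genes.

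Chromosome 8 stood apart when the tested genes were grouped by chromosome, with the 6 placed on Y left out. The Y median was above that of chromosome 8 against v6.5 library 1, at 0.397, and at -1.97 and -2.10 against E14 and -0.63 against v6.5 library 2. The 823 genes of chromosome 8 had a median log2 difference of 0.318 in miPS minus mESC, with 69.0% of them above 0. The medians of the 18 other autosomes ran from -0.169 to 0.131 and that of X was -0.234. Chromosome 8 was highest of the 20 in miPS minus each mESC library taken alone, with medians of 0.303 and 0.393 against E14 and 0.208 and 0.306 against v6.5. After GC correction these were 0.228 and 0.228 against E14 and 0.197 and 0.242 against v6.5, and the medians of the other autosomes and X then ran from -0.116 to 0.103. Against MEF, the cell of origin by label, the median of chromosome 8 was 0.253 after GC correction, again above the 19 others (-0.183 to 0.175). Against the partially reprogrammed lines it was 0.247 and 0.259, and there other chromosomes reached 0.548 and 0.439. All these differences share the 1 miPS library, and DNA copy number was not tested.

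**Figure D4:**
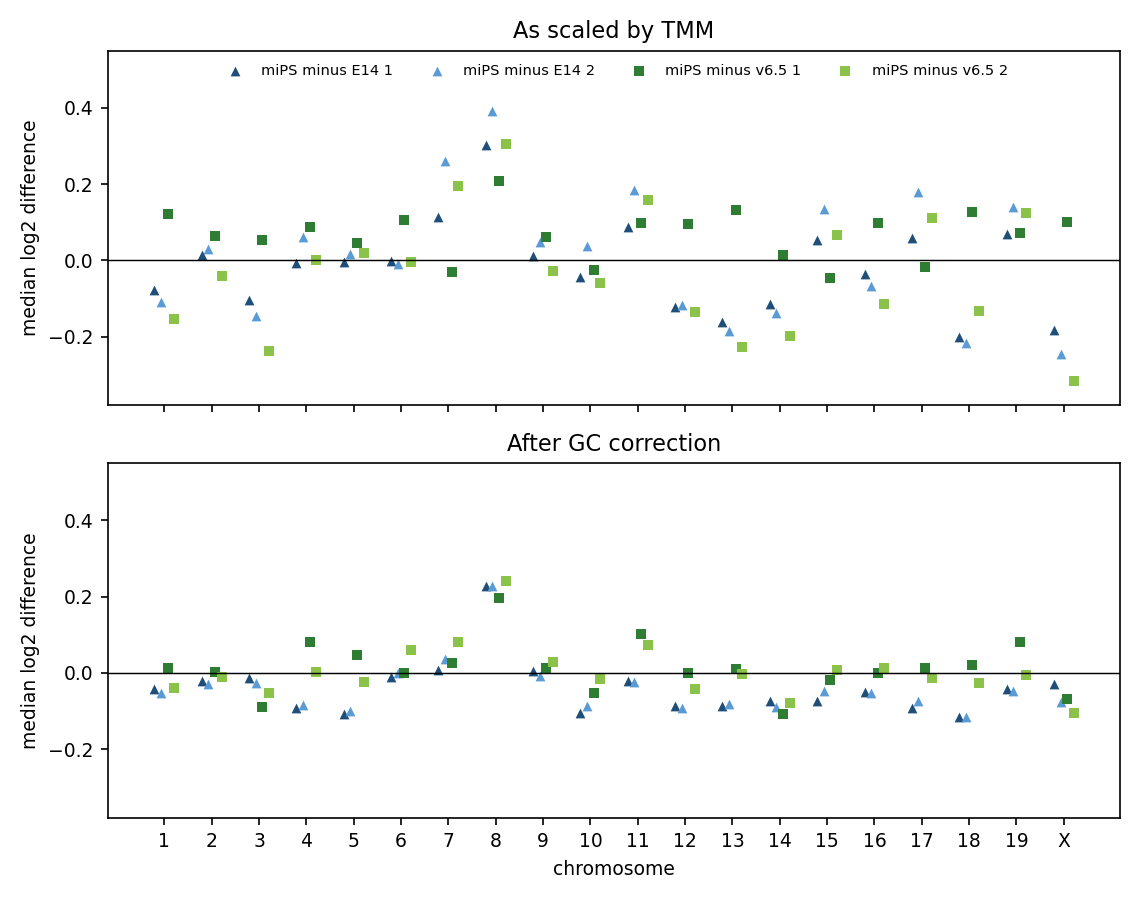
Median log2 difference over the tested genes of each chromosome (y axis), miPS minus each of the 4 mESC libraries (E14 as blue triangles, v6.5 as green squares), as scaled by TMM (top) and after GC correction (bottom). Y is not shown. Of the 19 autosomes and X, chromosome 8 lies highest in all 8 sets, at 0.208 to 0.393 in the top panel and 0.197 to 0.242 in the bottom panel.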

How the data were processed

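RNA-seq of 8 survey libraries was used, 5 of them in the comparison. The authors deposited RSEM expected counts and TPM per gene, for which the submitters' processing notes name TopHat 1.3, RSEM and mm9. Neither the annotation release nor the strand setting is given in the sources used here. The deposited bounds of each TPM, whose level is not stated, were not used in a test. Of 42458 entries, 343 had no values, and 58.0% of the deposited counts lay within 1e-09 of a whole number. An entry at 0 reads still had a TPM above 0 (15756 entries in miPS), so a TPM near that level is not a count. The deposited FPKM table of the time course (TopHat 1.14, Bowtie 0.12.7 and Cufflinks 1.3.0, per the submitters' processing notes) was used only for mm9 positions.

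Expected counts were rounded and fitted with edgeR 4.0.16 (R 4.3.3, quasi-likelihood, TMM) over all 8 libraries in 5 groups, for the 16773 genes at 1 CPM or more in at least 2 libraries; the threshold was an adjusted p of 0.05. The library totals ran from 7536503 to 23662593, and 3 reads equalled 0.127 to 0.398 CPM, a floor for counting error only. The distance from the mESC range used TMM-scaled CPM with 1 added and a threshold of 2-fold. Alternatives were DESeq2 1.42.0, RLE and upper quartile scaling, other filters, a replicate block, fewer libraries and other added CPM values. GC correction (a lowess curve with span 0.3, for 15367 genes with a GC content) and the protein-coding subset were chosen after seeing the data. The scripts were tested on simulated data.

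Named genes were the called list members, up to 15 called genes in each direction that also lay outside the mESC range by any amount at 5 TPM or more, all entries of the reprogramming factors, Dlk1-Meg3, Y-linked genes and Xist with Tsix, and the 2 members of highest TPM in each of 24 lists with no call. All others are said to be chosen after their values were seen. The members and lists were chosen with earlier results of these data known. A chromosome was found for 15872 tested genes. Promoters and their positions came from RefSeq on GRCm38.p6. The lncRNA that the series is about and some genes that the naming rule gave are not reported here.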

Additional observations from a re-analysis of the deposited data

How the results depend on the processing

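The number of called genes depended on the tool, the filter and single libraries. For miPS against mESC (5 called), the replicate block gave 29, DESeq2 175, the miPS, E14 and v6.5 libraries alone 1, GC correction 8 and no filter 222, and leaving out 1 library gave 0 to 308. For miPS against v6.5 (0 called), DESeq2 gave 180, GC correction 1, no filter 96 and leaving out 1 library 0 to 43. For miPS against E14 (14 called), the replicate block gave 67, DESeq2 399, the miPS, E14 and v6.5 libraries alone 2, a filter of 1 CPM in 1 library 22, no filter 454 and leaving out 1 library 0 to 574. For E14 against v6.5 (82 called), DESeq2 gave 1138, the 3 pluripotent groups alone 11, the genes with a GC content without correction 21, no filter 1417 and leaving out 1 library 0 to 4376. With the 4 mESC libraries as 1 group (0 called), DESeq2 gave 32 and no filter 1, and leaving out 1 library gave 0. These ranges over left-out libraries include fits with GC correction, which were added after seeing the data. Where 1 library of a line was left, it was assumed to vary like the other groups. Replicate numbers of E14 and v6.5 are only shared numbers: their differences correlated at 0.397 across genes, with 1 difference for each line. DESeq2 gave no adjusted p for 651 genes in miPS against mESC.

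The 280 genes outside the mESC range became 513 with 0.25 CPM added, 119 with 4 CPM added, 37 at 4-fold, and 314 to 1252 without 1 mESC library. Of the 52 such genes picked after their values were seen, 28 stayed outside with 4 CPM added, 39 on TPM, 51 with RLE factors and 47 of 51 after GC correction; leaving out a mESC library can only narrow the range, so it is no check of them. Chromosome 8 stayed highest with a 5 CPM filter (median 0.338), RLE factors (0.308) and GC correction (0.260). Upper quartile scaling moved the median over all genes to 0.12 in miPS against E14 and -0.12 in E14 against v6.5.

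Of the log2 differences of miPS minus mESC of genes chosen by the naming rule, 23 changed sign in settings other than leaving out 1 library and 58 when 1 library was left out; 597 and 535 kept direction and side of the threshold. None of the genes that changed sign was called, and the cause was not tested. The replicate block gave 0.0631 for Apoe, 0.0422 for Ier2 and 0.12 for Sox2. GC correction gave -0.15 for Atp5a1, 0.17 for Chic1, 0.25 for Eif1a, -0.0039 for Etv5, -0.17 for Lamc1, -0.21 for Pkm2, 0.20 for Tdrd12 and 0.35 for Xist. Upper quartile scaling gave 0.0439 for Ier2, 0.0163 for Psat1, 0.0342 for Rtl1 and 0.0388 for Sox2. A filter of 5 CPM gave 0.0178 for Ier2, 0.0073 for Rtl1 and 0.0146 for Sox2, and the genes with a GC content without correction gave 0.0015 for Ier2. For Lamc1, DESeq2 and RLE factors both gave -0.0032 and no filter -0.0299. No filter gave -0.000181 for 1 Ube1y1 entry.

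With 1 library left out, the range was -0.45 to 0.67 for Apoe, -0.0148 to 0.16 for Asns, -0.20 to 0.23 for Atp5a1, -0.55 to 0.59 for Chic1 and -0.0504 to 0.69 for Dio3. It was -0.54 to 0.34 for Eif1a, -0.0752 to 0.17 for Etv5, -0.28 to 0.24 for Ier2 and -0.20 to 0.14 for Lamc1. For Mirg it was -0.30 to 0.23, for Phc1 -0.41 to 0.26, for Pkm2 -0.34 to 0.13, for Psat1 -0.10 to 0.0091, for Rbbp4 -0.59 to 0.0216 and for Rtl1 -0.38 to 0.12. Sox2 had -0.45 to 0.60, Tdrd12 -0.30 to 0.30, the Ube1y1 entry ENSMUSG00000069053 -0.0771 to 0.41, ENSMUSG00000071964 -0.14 to 0.34, Uhrf1 -0.10 to 0.51, Xist -0.53 to 0.55 and Zfy1 -1.65 to 0.93.

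The single miPS library, at 7613843 counts, limits what can be seen: low genes such as Fgf8 rest on a few counts, and a difference between this library and induced lines in general cannot be told apart.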
